A study of Homo sapiens with 6 samples.

Results

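Transcript levels of 32 genes of glycolysis and of the hypoxia response were examined in the human embryonic stem cell line H1, with and without HEB. The genes were chosen by symbol, as 32 of the 23591 genes of the expression table, and fall into 17 glycolytic enzymes, 3 transporters of glucose or lactate, 3 regulators of glycolytic flux, 8 genes known to be induced by low oxygen, and HIF1A. HEB is the basic helix-loop-helix transcription factor encoded by TCF12. Total RNA was profiled in 3 wild type libraries and in 3 libraries labelled HEB KO, a knockout of HEB. Both groups were grown on Matrigel in the serum-free medium TeSR-E8, and no oxygen treatment is named for either group. The labels do not say how the knockout was made, or whether the libraries of a group came from separate cultures or clones, so that p-values here cover the spread between these 6 libraries alone and that spread may be technical.

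Glycolysis splits glucose into pyruvate in the cytosol, and lactate dehydrogenase can turn the pyruvate into lactate, which leaves the cell through monocarboxylate transporters. When oxygen is low, the prolyl hydroxylases that mark HIF-1 alpha for destruction lose activity, and the stabilised factor, paired with ARNT, raises transcription of glucose transporters, most glycolytic enzymes and genes such as CA9, ADM and BNIP3. Human pluripotent stem cells are known for a high rate of glycolysis even with oxygen present.

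None of the 30 genes that could be tested passed the threshold between HEB KO and wild type. ADM, which encodes the vasodilator peptide adrenomedullin, came nearest, at 15.5 ± 8.101 FPKM in wild type against 38.02 ± 3.303 FPKM in HEB KO (SD, n = 3 each). Single libraries of 1 genotype differed by more in several genes, though single libraries can lie further apart than means of 3. BNIP3, a mitophagy receptor, read 178 FPKM in HEB KO library 3 and 15.6 FPKM in HEB KO library 2. All 17 enzymes were highest in HEB KO library 3 among the HEB KO libraries, against 28.9% of all genes tested.

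Values are FPKM, fragments scaled to transcript length and library size, and hold no read counts, so the depth of each library is unknown. Summed FPKM was 440703 in HEB KO library 1 and between 635114 and 714875 in the other 5 libraries. The typical gene was not lower there. The median ratio of its genes to their geometric mean over the 6 libraries was 0.993, against 0.977 to 1.09 in the others. HEB KO library 1 also stood apart in the sum of 6 fibroblast and mesenchyme markers, at 91.3 FPKM against 10.8 to 24.0 FPKM elsewhere. Most of that sum came from COL1A1 at 39.7 FPKM and COL1A2 at 46.3 FPKM, with PDGFRB at 5.20 FPKM. COL3A1 and LUM read 0.104 and 0.0436 FPKM there, and DCN was at 0 in all libraries. The 8 pluripotency markers lay between 59.2 and 1279 FPKM in all 6 libraries and summed to 1351 FPKM in HEB KO library 1 and to 2693 to 3230 FPKM elsewhere. Primitive streak and trophoblast lists summed to at most 6.095 and 4.198 FPKM in any library, while endoderm and neural markers reached at most 0.118 and 0.631 FPKM. MIXL1 of the primitive streak list was also lower in all HEB KO libraries, at 5.80, 1.75 and 3.13 FPKM against 0.988, 0.465 and 0.814 FPKM (limma adjusted p = 0.294). The part of the make-up of HEB KO library 1 in the results below was not tested, and each median log2 fold change over a group of genes is also given without that library. TCF12 read 44.2, 55.7 and 51.02 FPKM in wild type against 14.2, 6.69 and 8.28 FPKM in HEB KO, lower in all HEB KO libraries, at a log2 fold change of -2.31 (adjusted p = 0.0310 by limma).

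Promoters are shown for ADM, the gene with the smallest p of the set, and for BNIP3 and PGK1. These last genes differed strongly between libraries of 1 genotype in both genotypes and were chosen after the values were seen. SLC16A3 and LDHA differed strongly in both genotypes as well, and their promoters are not shown. The stretches are the 250 bases before the annotated start, from RefSeq on GRCh38.p14, written in the direction of transcription. Capitals mark, on either strand, the core letters of the element that HIF binds, as ACGTG (the A form) or GCGTG (the G form). The ADM stretch is chr11:10304823-10305072 on the plus strand, that of BNIP3 is chr10:131981924-131982173 on the minus strand and that of PGK1 is chrX:78103998-78104247 on the plus strand.
ADM: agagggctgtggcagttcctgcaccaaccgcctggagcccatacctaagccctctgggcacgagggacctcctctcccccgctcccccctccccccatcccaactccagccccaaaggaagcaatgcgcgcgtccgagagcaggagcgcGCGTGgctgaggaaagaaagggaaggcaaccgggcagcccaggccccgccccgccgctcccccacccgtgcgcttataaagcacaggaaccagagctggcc
BNIP3: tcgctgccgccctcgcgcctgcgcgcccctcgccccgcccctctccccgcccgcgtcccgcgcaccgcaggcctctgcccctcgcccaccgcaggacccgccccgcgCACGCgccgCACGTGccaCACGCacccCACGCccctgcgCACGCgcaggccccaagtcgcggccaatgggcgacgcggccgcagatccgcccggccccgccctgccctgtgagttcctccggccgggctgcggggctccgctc
PGK1: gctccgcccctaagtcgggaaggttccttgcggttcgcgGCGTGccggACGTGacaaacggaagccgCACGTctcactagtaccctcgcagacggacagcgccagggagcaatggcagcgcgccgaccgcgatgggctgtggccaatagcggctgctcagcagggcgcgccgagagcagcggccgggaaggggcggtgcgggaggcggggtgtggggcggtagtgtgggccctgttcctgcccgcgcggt

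The ADM stretch held the G form 1 time, 101 bases before the start. BNIP3 held the G form 4 times and the A form 2 times between 143 and 104 bases before the start, and both matches to the A form belong to 1 CACGTG, which reads the same on both strands. PGK1 held the G form 1 time and the A form 2 times between 211 and 183 bases before the start, with 1 more match to the A form after the start, outside the printed stretch. In windows of 300 bases, 250 before and 50 after the start, the A form was found in 21.4% and the G form in 36.5% of all 35116 annotated promoters. For 30 of the 32 genes, 57 such windows were listed. Genes with several annotated starts, such as HK1, PFKM and SLC16A3, count more than 1 time in them. The A form was in 23 (40.4%) of the 57, the G form in 22 (38.6%) and either in 38 (66.7%), against 48.4% of all promoters for either. Some windows of SLC16A3 held neither form. Of the 7 windows of hypoxia-induced genes, 5 held the A form and 2 held the G form. CACGTG, which contains the A form, was in 8 of the 57 windows and in 7.26% of all promoters. These matches describe letters and show neither binding nor its absence.

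The main comparison asked which of these genes differ between HEB KO and wild type cells. By limma on log2(FPKM + 1), with Benjamini-Hochberg adjustment over the 12937 genes that reached 1 FPKM in 3 or more of the 6 libraries, 31 genes (0.240%) passed at 0.05, of which 3 rose and 28 fell. Of the 32 genes, 30 were expressed highly enough to be tested and 0 passed the threshold. CA9 and ANKRD37 lay below the filter and were not tested. At an unadjusted p under 0.05, 1 of the 30 (ADM) passed, against 1300 genes (10.0%) of all tested. The 95% interval of the log2 fold change included 0 for 29 of the 30. All HEB KO libraries lay above all wild type libraries for 1 of the 30 (ADM), against 7.72% of all genes, and below them for 1 (SLC2A3), against 11.8%. Here the median log2 fold change was -0.12 over the 30 genes, with 11 above 0, and -0.04 over all genes tested. Without HEB KO library 1 it was 0.12 over the 30, with 21 above 0, and again -0.04 over all genes. Without any other single library it lay between -0.46 and -0.0048 over the 30. In bulk RNA, fewer cells that express a gene and less of its RNA per cell cannot be told apart.

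**Figure D1:**
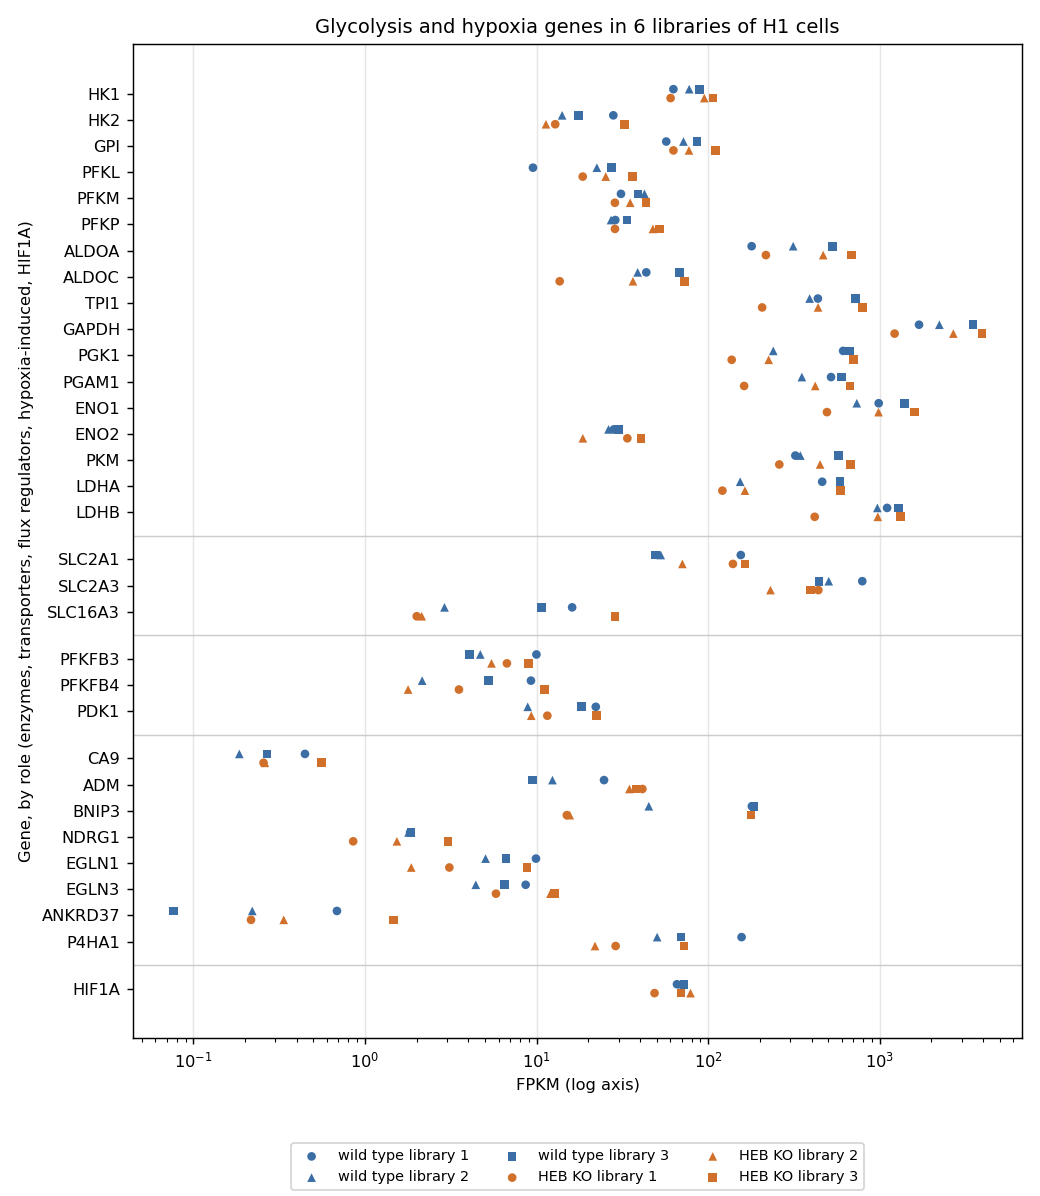
Transcript level of each of the 32 genes in each library, in FPKM on a log axis, with wild type in blue, HEB KO in orange and 1 symbol per library number. The points of the groups overlap for all genes tested except ADM and SLC2A3, and HEB KO library 3 is the rightmost orange point for all 17 enzymes.

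Among the glycolytic enzymes 0 of 17 passed, 7 lay above and 10 below 0, and the median log2 fold change was -0.08, which was 0.17 with quantile normalization, 0.25 without HEB KO library 1 and 0.11 without wild type library 3, but -0.38 when HEB KO library 3 was left out. Adjusted p-values ran from 0.593 to 0.998. On the FPKM scale, which is per length, the levels by step of the pathway differed widely. Glyceraldehyde-3-phosphate dehydrogenase was highest, at 2468 ± 921 FPKM in wild type against 2615 ± 1362 FPKM in HEB KO. Lactate dehydrogenase followed at 1518 ± 376 and 1193 ± 685 FPKM, and enolase at 1066 ± 335 and 1053 ± 555 FPKM. The next levels, from triosephosphate isomerase at 516 ± 179.6 FPKM in wild type down to aldolase at 391 ± 191 FPKM, did not differ beyond their spread. The first steps were lowest, with hexokinase at 96.1 ± 8.67 and 106 ± 32.9 FPKM, phosphofructokinase at 87.02 ± 15.8 and 105 ± 28.01 FPKM and glucose-6-phosphate isomerase at 71.6 ± 14.6 and 83.4 ± 24.3 FPKM.

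At the entry to the pathway, HK1, the hexokinase that predominates in most tissues, read 62.7, 77.5 and 88.6 FPKM in wild type against 60.4, 94.8 and 107 FPKM in HEB KO. HK2, the hexokinase induced by HIF-1 and insulin, read 27.98, 14.1 and 17.5 FPKM in wild type against 12.8, 11.3 and 32.5 FPKM in HEB KO. Both genes overlapped between the groups. GPI, which interconverts glucose 6-phosphate and fructose 6-phosphate, read 56.9, 71.7 and 86.04 FPKM in wild type against 62.7, 77.3 and 110.1 FPKM in HEB KO. The phosphofructokinases catalyse the committed step, and their liver-type gene PFKL read 9.52, 22.4 and 27.2 FPKM in wild type against 18.6, 25.3 and 36.1 FPKM in HEB KO. PFKM, the muscle type, read 31.01, 42.5 and 38.97 FPKM and 28.6, 35.1 and 43.3 FPKM. PFKP, the platelet type, read 28.7, 27.1 and 33.6 FPKM and 28.6, 47.6 and 52.2 FPKM, with 2 of the 3 HEB KO libraries above all wild type libraries and a log2 fold change of 0.47 (SE 0.27, limma adjusted p = 0.593) that passed with library weights (0.78). With those weights 1874 of all 12937 genes passed.

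In the middle of the pathway ALDOA, the main aldolase, read 179, 313 and 530.4 FPKM in wild type against 217, 468 and 683 FPKM in HEB KO. ALDOC, the brain-enriched aldolase, read 43.6, 38.8 and 68.2 FPKM and 13.6, 36.4 and 72.99 FPKM. Library 3 was the highest of each genotype for both aldolases. TPI1, which interconverts the triose phosphates, read 436, 389.95 and 721 FPKM and 206, 437 and 796 FPKM. GAPDH, the NADH-forming step, read 1693, 2224 and 3485 FPKM and 1219.7, 2683 and 3942 FPKM. Its log2 fold change of -0.01 (SE 0.64, 95% interval -1.48 to 1.46) had a wide interval and was positive with median-ratio scaling (0.046) and quantile normalization (0.32).

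PGK1, the first ATP-forming step, read 611, 239 and 666 FPKM in wild type against 137, 225 and 703 FPKM in HEB KO. Wild type library 2 and HEB KO libraries 1 and 2 were low, and the other 3 libraries lay between 611 and 703 FPKM. PGAM1, the mutase, read 519.9, 351 and 598 FPKM and 162, 420.4 and 669 FPKM. ENO1, the ubiquitous enolase, read 985, 734 and 1394 FPKM and 492, 983 and 1591 FPKM, and ENO2, the neuron-enriched enolase, 28.2, 26.2 and 29.9 FPKM and 33.8, 18.6 and 40.5 FPKM. The last step, pyruvate kinase, is represented by PKM. PKM read 322, 344 and 576 FPKM in wild type against 259.6, 449 and 674 FPKM in HEB KO. LDHA, the lactate dehydrogenase subunit induced by HIF-1, read 462, 154 and 586 FPKM and 121, 164 and 588 FPKM, with the same low and high libraries as PGK1. LDHB, the other subunit, read 1103, 968 and 1283 FPKM and 417, 974 and 1317 FPKM, so that HEB KO library 1 was the low one. The log2 fold change was -0.72 for PGK1 (SE 0.66, limma adjusted p = 0.739) and -0.61 for LDHA (SE 0.70, limma adjusted p = 0.794), and without HEB KO library 1 it was -0.21 and -0.16, and with library weights 0.50 and 0.68.

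Among the transporters 0 of 3 passed, with a median log2 fold change of -0.49. It ran from -0.82 to 0.068 with single libraries left out, and lay above 0 without HEB KO library 1 (0.068) or HEB KO library 2 (0.036). SLC2A3, which encodes the high-affinity glucose transporter GLUT3, read 790.5, 504 and 442 FPKM in wild type against 438, 231 and 396 FPKM in HEB KO. The groups did not overlap, but the lowest wild type and highest HEB KO values lay side by side, and the log2 fold change was -0.71 (SE 0.40, limma adjusted p = 0.584). SLC2A1, which encodes GLUT1, read 155, 52.8 and 49.3 FPKM and 139, 70.7 and 164 FPKM. SLC16A3, which encodes the lactate exporter MCT4, read 16.1, 2.904 and 10.7 FPKM and 2.001, 2.14 and 28.7 FPKM. Its HEB KO values ranged 14.3-fold and its wild type values 5.54-fold, the widest range of a tested gene of the set in either genotype. SLC2A3 shares near-identical sequence with SLC2A14, and PGAM1 with PGAM4, so reads can be split between them and these values are uncertain.

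The flux regulators showed 0 of 3 past the threshold and a median log2 fold change of -0.13. That median was -0.013 without HEB KO library 1, and it ran from -0.55 to 0.34 with single libraries left out, above 0 without HEB KO library 2 (0.34) or wild type library 1 (0.27). PFKFB3 and PFKFB4 make and break down fructose 2,6-bisphosphate, the activator of phosphofructokinase. PFKFB3 read 9.97, 4.695 and 4.07 FPKM in wild type against 6.71, 5.46 and 8.96 FPKM in HEB KO. PFKFB4 read 9.27, 2.15 and 5.24 FPKM and 3.53, 1.78 and 11.2 FPKM. PDK1, a kinase that holds back pyruvate dehydrogenase, read 22.1, 8.87 and 18.3 FPKM and 11.5, 9.304 and 22.3 FPKM. Library 2 was the lowest HEB KO library for all 3 genes and wild type library 1 the highest wild type library.

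Of the 8 hypoxia-induced genes 6 were tested and 0 passed, with 2 above and 4 below 0 and a median log2 fold change of -0.40, which became -0.20, -0.19 and -0.80 when HEB KO library 1, 2 or 3 in turn was left out. ADM read 24.7, 12.4 and 9.44 FPKM in wild type against 41.3, 34.7 and 37.99 FPKM in HEB KO. Every HEB KO library lay above every wild type library, and the ratio of means was 2.45. The log2 fold change was 1.35 (SE 0.33, 95% interval 0.58 to 2.11) and did not pass over all genes (limma adjusted p = 0.268), while the two-sided exact permutation p was 0.1, the smallest that 3 libraries against 3 allow. ADM did pass with weights estimated per library (log2 fold change 1.53) and without both libraries numbered 1 (1.66), and EGLN3 passed in the same 2 settings (1.10 and 1.07). Far more genes passed in these settings than in the main fit, 1874 and 480 of all 12937 against 31. BNIP3 read 179.6, 45.1 and 185 FPKM and 14.996, 15.6 and 178 FPKM. High and low libraries occurred in both genotypes, and its log2 fold change of -1.68 had an SE of 0.97 and a 95% interval of -3.91 to 0.56 (limma adjusted p = 0.593). It was -1.09 without HEB KO library 1 and 0.14 with library weights. P4HA1, a collagen prolyl hydroxylase subunit, read 156, 50.4 and 69.5 FPKM and 28.9, 21.9 and 72.4 FPKM, with a log2 fold change of -1.17 (SE 0.53, limma adjusted p = 0.518).

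EGLN1 and EGLN3 encode the oxygen-sensing prolyl hydroxylases PHD2 and PHD3, and both are known targets of HIF-1. EGLN1 read 9.91, 5.04 and 6.63 FPKM in wild type against 3.099, 1.86 and 8.81 FPKM in HEB KO. EGLN3 read 8.63, 4.42 and 6.499 FPKM and 5.79, 12.03 and 12.7 FPKM. The log2 fold change was -0.71 for EGLN1 (SE 0.45, limma adjusted p = 0.632) and 0.54 for EGLN3 (SE 0.34, limma adjusted p = 0.618). NDRG1, a stress-induced gene, read 1.83, 1.79 and 1.85 FPKM and 0.852, 1.53 and 3.05 FPKM, so that wild type spanned 1.03-fold and HEB KO 3.57-fold. CA9, the cell-surface carbonic anhydrase often used as a hypoxia marker, lay between 0.185 and 0.559 FPKM in all 6 libraries. ANKRD37, a small HIF-1 target, read 0.686, 0.2201 and 0.0762 FPKM and 0.217, 0.336 and 1.47 FPKM, and these low values were not tested.

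HIF1A, which encodes the oxygen-regulated subunit, read 65.7, 70.4 and 72.1 FPKM in wild type against 48.7, 78.9 and 69.5 FPKM in HEB KO, with a log2 fold change of -0.11 (SE 0.25, limma adjusted p = 0.908) that was 0.057 with quantile normalization and 0.092 without HEB KO library 1. The factor is regulated mainly through protein stability, which RNA levels do not show. The within-genotype SD on the log2 scale was 0.26 for HIF1A, against a median of 0.65 over the enzymes, 0.61 over the hypoxia-induced genes, 0.64 over the 30 genes and 0.33 over all genes tested.

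**Figure D2:**
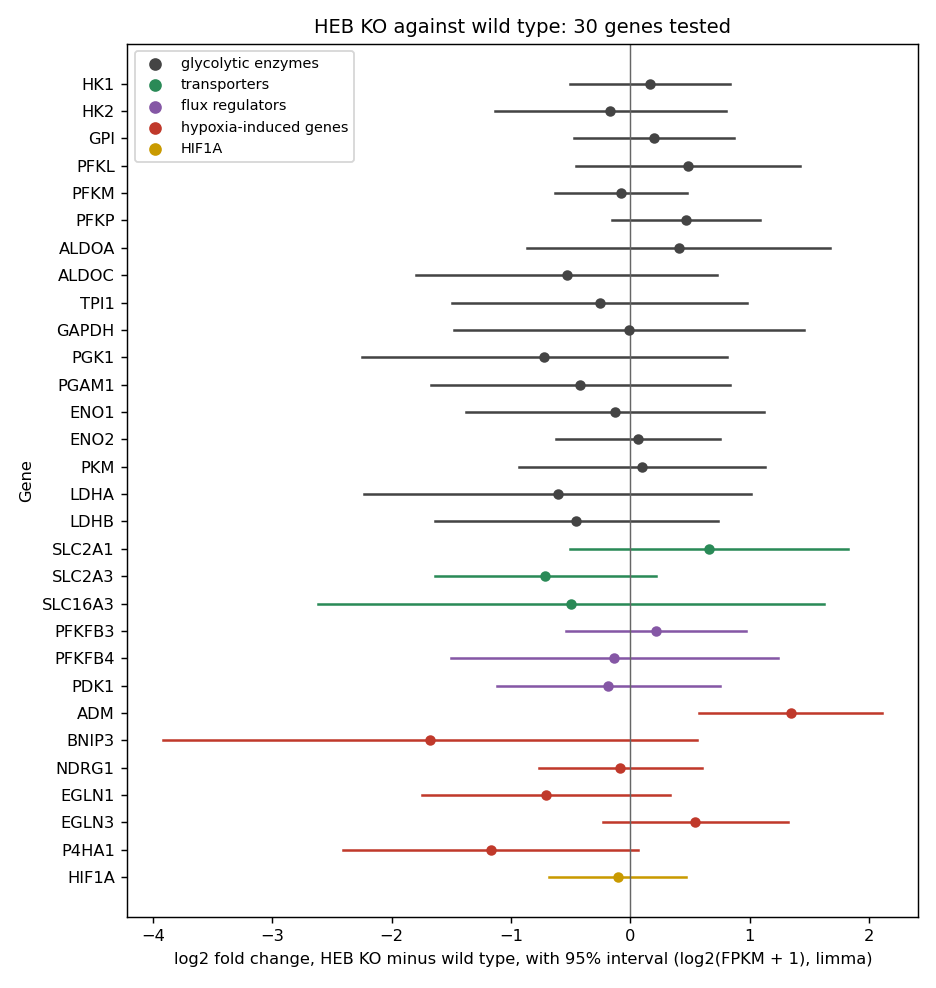
Log2 fold change of HEB KO against wild type for the 30 genes tested, from limma on log2(FPKM + 1), with 95% intervals and colours by role. The interval of ADM, from 0.58 to 2.11, lies above 0, and the intervals of the other 29 genes include 0.

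Differences between libraries of 1 genotype were then described, with a rule chosen after the values were seen: a gene was counted where 1 library was at least 2-fold above or below another on the log2(FPKM + 1) scale. Each such comparison sets 1 library against 1, so no test applies. In HEB KO library 3 against library 2, 11 of the 30 genes were higher (0.688% of all genes tested) and 0 were lower (0.526%). The 11 were HK2, PGK1, ENO2, LDHA, SLC2A1, SLC16A3, PFKFB4, PDK1, BNIP3, EGLN1 and P4HA1, which include 4 of 17 enzymes, 2 of 3 transporters, 2 of 3 flux regulators and 3 of 6 hypoxia-induced genes. In all, 29 of the 30 lay above 0, all but HIF1A, and the median log2 difference was 0.68, against 0.03 over all genes tested. BNIP3 was 11.4-fold, SLC16A3 13.4-fold, PFKFB4 6.26-fold and EGLN1 4.74-fold higher in FPKM.

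In wild type library 3 against library 2, 4 of the 30 genes were higher (0.301% of all genes tested) and 0 were lower (0.804%). BNIP3 was 4.10-fold, LDHA 3.81-fold, SLC16A3 3.68-fold and PGK1 2.78-fold higher, and the median log2 difference over the 30 was 0.43, against 0.01 over all genes. These 4 were all among the 11 of the HEB KO pair, so the shared genes are 36.4% of the HEB KO list and 100% of the wild type list. Of all genes tested, 89 in HEB KO and 39 in wild type were at least 2-fold higher in library 3 than in library 2, and 12 were in both lists, 13.5% of the first and 30.8% of the second. Beside the 4 genes of the set, these 12 held FAM162A and TXNIP of the other hypoxia-induced genes, C4orf3, C4orf47 and 4 small RNA genes. With small RNA genes left out, the shares of all genes were 0.432% and 0.133%. The labels do not say what a replicate number stands for. An overlap with the 11 was also found between wild type libraries 1 and 2, as given below.

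**Figure D3:**
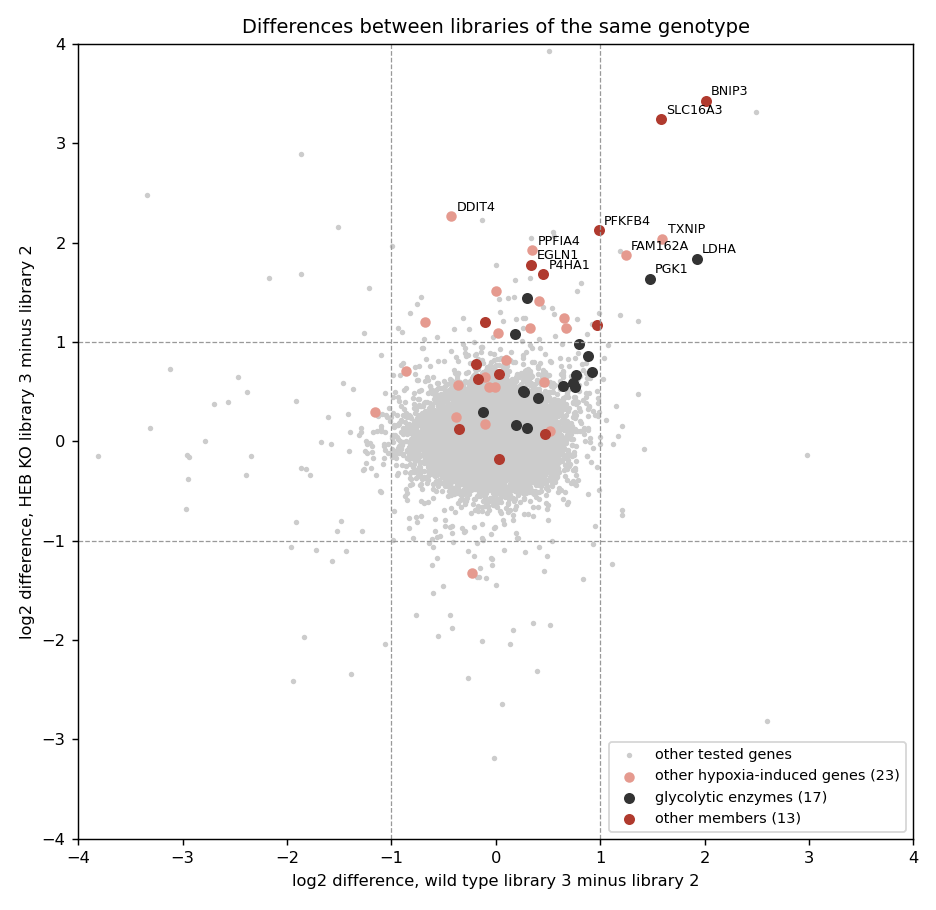
Log2 difference in log2(FPKM + 1) between library 3 and library 2, for wild type (horizontal axis) and HEB KO (vertical axis), with 1 point per gene tested, dashed lines at 2-fold, and 39 genes outside the axes not drawn. BNIP3, SLC16A3, LDHA and PGK1 lie beyond 2-fold in both genotypes, with TXNIP and FAM162A of the other hypoxia-induced genes.

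Wild type library 1 was compared in the same way. Against it, library 2 was at least 2-fold lower in 8 of the 30 genes (2.50% of all genes tested), namely PGK1, LDHA, SLC2A1, SLC16A3, PFKFB4, PDK1, BNIP3 and P4HA1, and higher in 1, PFKL (3.77%). All 8 are also among the 11 genes at least 2-fold higher in HEB KO library 3 than in HEB KO library 2. Wild type library 3 was lower than wild type library 1 in 4 genes (4.02%), SLC2A1, PFKFB3, ADM and P4HA1, and higher in 3 (4.58%), PFKL, ALDOA and GAPDH. Hypoxia-induced genes, transporters and flux regulators stood high in wild type library 1, while most enzymes did not. In that library all 3 transporters, all 3 flux regulators and 4 of the 6 hypoxia-induced genes had their highest wild type value. By contrast, 15 of 17 enzymes were highest in wild type library 3. Over the 30 genes, 11 were highest in wild type library 1 (45.8% of all genes tested) and 18 in wild type library 3 (31.8%), and 18 were lowest in wild type library 2 (31.8%).

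Against HEB KO library 1, which stood apart in sum and in markers, library 2 was at least 2-fold higher in 6 of the 30 genes (8.70% of all genes tested) and lower in 0 (11.3%). The 6 were all enzymes: ALDOA, ALDOC, TPI1, GAPDH, PGAM1 and LDHB. Library 3 was higher than library 1 in 18 genes (8.92%) and lower in 0 (10.4%), with a median log2 difference of 1.27. HEB KO library 3 was the highest of its genotype for 27 of the 30 genes (28.9% of all genes tested), which was 25 with quantile normalization. Summed over the 17 enzymes, FPKM was 6599, 6038 and 10231 in wild type and 3491, 7149 and 11457 in HEB KO. As a share of a library's summed FPKM these were 0.932%, 0.951% and 1.43% in wild type and 0.792%, 1.07% and 1.73% in HEB KO. HEB KO library 1 had the smallest summed FPKM, so its share is of a smaller total.

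**Figure D4:**
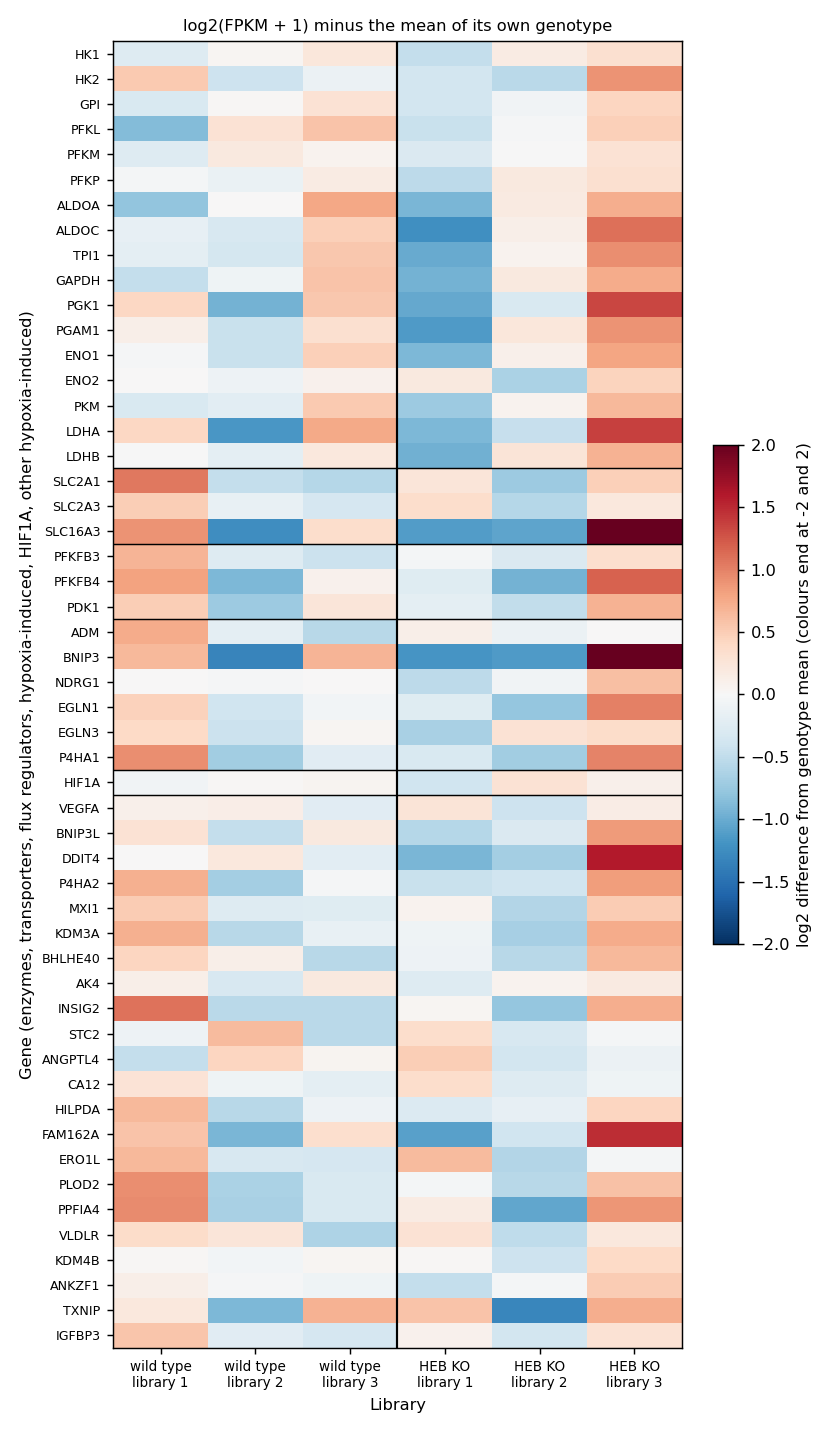
Log2(FPKM + 1) of each gene in each library minus the mean of its own genotype, for the 30 genes tested and 22 of the 23 other hypoxia-induced genes tested, with red above and blue below that mean and colours ending at -2 and 2. Columns differ within each genotype: the enzymes are mostly red in wild type library 3 and HEB KO library 3, and BNIP3 and SLC16A3 are blue in wild type library 2 and HEB KO libraries 1 and 2.

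Shares within gene families do not change with a scaling factor per library, and 10 such shares were tested with two-sided exact permutation tests. In 4 of them the groups did not overlap, each with the smallest possible exact permutation p of 0.1 and an adjusted p of 0.25 over the 10. Of all single genes tested, 7.72% lay higher and 11.8% lower in HEB KO without overlap. No such background was computed for shares. The 10 are not independent, as the shares of PFKL, PFKM and PFKP depend on each other. SLC2A3, part of the SLC2A1 share, itself lay lower without overlap. The share of SLC2A1 in the sum of SLC2A1 and SLC2A3 was 16.4%, 9.49% and 10.03% in wild type and 24.1%, 23.5% and 29.3% in HEB KO. All HEB KO libraries lay above, with means of 11.97% ± 3.83 and 25.6% ± 3.19 (SD, n = 3 each). EGLN1 made up 53.5%, 53.3% and 50.5% of EGLN1 plus EGLN3 in wild type and 34.9%, 13.4% and 40.9% in HEB KO, with means of 52.4% ± 1.66 and 29.7% ± 14.5. All HEB KO libraries lay below. PFKM made up 43.3% ± 3.75 of the phosphofructokinases in wild type and 34.4% ± 2.91 in HEB KO, and ALDOA 86.003% ± 4.82 and 92.4% ± 1.899 of the aldolases.

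The share of LDHA in LDHA plus LDHB differed between libraries of each genotype and overlapped between the groups. It was 29.5%, 13.7% and 31.3% in wild type and 22.5%, 14.4% and 30.9% in HEB KO, lowest in library 2 of each genotype (exact permutation p = 0.9). The remaining shares, of HK1, PFKL, PFKP, ENO1 and PFKFB3, also overlapped between the groups, with exact permutation p between 0.3 and 0.9.

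**Figure D5:**
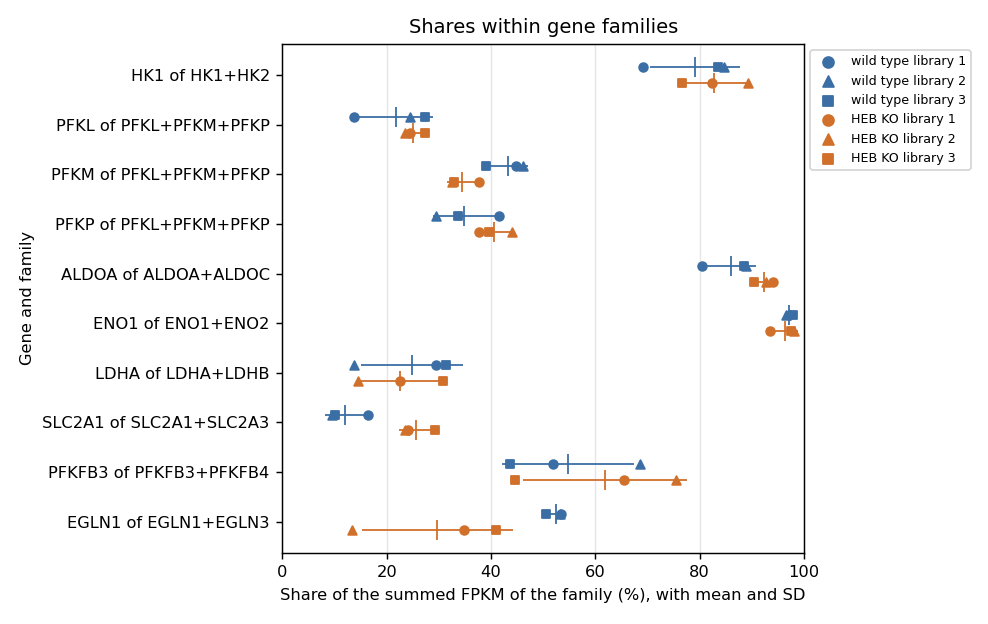
Share of 1 gene in the summed FPKM of its family, in percent, for each library (points) with the mean (vertical tick) and SD (horizontal line) of each group. The groups are apart for SLC2A1, EGLN1, PFKM and ALDOA and overlap for the other 6 shares.

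Other genes of the same pathways gave 0 calls in each of 5 lists, and genes with the smallest p of each are named. Of 26 other glycolysis and glucose genes 16 were tested, with a median log2 fold change of 0.08 that was 0.0050 without HEB KO library 1 and ran from -0.034 to 0.16 with single libraries left out. PGAM2, the muscle mutase, and SLC2A6 had log2 fold changes of 0.88 and 0.78 (limma adjusted p = 0.372 for both). Of 12 genes of pyruvate entry to mitochondria 11 were tested, with a median of -0.19 and 3 above 0. Without HEB KO library 1 this median was 0.082, with 8 of 11 above 0, and without any other single library it lay between -0.33 and -0.082. PDK2 read 1.65, 3.29 and 3.08 FPKM in wild type against 4.96, 5.66 and 4.32 FPKM in HEB KO, and PDK3 28.04, 18.1 and 22.9 FPKM and 10.5, 8.69 and 17.95 FPKM (limma adjusted p = 0.388 for both). These pyruvate dehydrogenase kinases lay in opposite directions, each without overlap. Both were named for the smallest p of their list. Of all genes tested, 7.72% lay higher and 11.8% lower in HEB KO without overlap. All 7 pentose phosphate genes were tested, with a median of 0.10 that became 0.29 when HEB KO library 1 was left out and 0.013 to 0.25 without another library. PGLS, the lactonase of the pathway, lay 0.43 higher in HEB KO on the log2 scale (limma adjusted p = 0.721).

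A list of 10 genes held HIF subunits, regulators of HIF, MYC and MYCN, and 9 of them were tested. Their median log2 fold change was 0.42, which became 0.25 when HEB KO library 1 was left out and 0.29 to 0.41 without another library. MYCN, a MYC family factor, read 22.5, 21.6 and 20.4 FPKM in wild type against 32.3, 44.9 and 44.8 FPKM in HEB KO, and CITED2, which competes with HIF-1 alpha for its coactivator, 13.1, 9.51 and 8.43 FPKM and 40.9, 15.2 and 17.2 FPKM. Both, named for the smallest p of their list, were higher in all HEB KO libraries (7.72% of all genes tested). Neither passed (limma adjusted p = 0.268 and 0.409). Of 24 other hypoxia-induced genes 23 were tested, 6 above and 17 below 0, with a median of -0.16. This became -0.13 when HEB KO library 1 was left out and lay between -0.43 and -0.079 without another library. KDM4B, a histone demethylase, read 4.78, 4.49 and 4.88 FPKM in wild type against 7.08, 4.95 and 9.51 FPKM in HEB KO (limma adjusted p = 0.548).

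In HEB KO library 3 against library 2, 11 of these 23 other hypoxia-induced genes were at least 2-fold higher (0.688% of all genes tested). At least 2-fold lower was 1 (0.526%). In all, 22 of 23 lay above 0, with a median log2 difference of 0.82. The 11 included DDIT4, an inhibitor of mTOR signalling, at 65.3 against 12.8 FPKM, and FAM162A at 168 against 45.2 FPKM. In the same pair 0 of 7 pentose phosphate genes were at least 2-fold higher, 0 of 11 genes of pyruvate entry, 0 of 9 genes of the HIF and MYC list and 1 of 16 other glycolysis genes (PGM1). In wild type library 2 against library 1, 8 of the 23 were at least 2-fold lower (2.50% of all genes tested) and 0 higher (3.77%). In wild type library 3 against library 2 the median over the 23 was -0.0022, with FAM162A and TXNIP at least 2-fold higher (0.301% of all genes tested) and STC2 lower (0.804%).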

How the data were processed

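Total RNA of 3 wild type and 3 HEB KO libraries was extracted with TRIZOL, depleted of ribosomal RNA and made into stranded libraries, per the labels' protocols. Per the submitters' processing notes, TopHat2 2.1.0 was used with Bowtie2 2.2.6 on the hg19 build. The authors deposited 1 value per gene and library, taken to be FPKM from the values themselves. Not given in the sources used here are the counting tool, its annotation, strand setting and any scaling. Of 23619 entries 28 had a date for a symbol and were left out (at most 0.110% of a library's sum).

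Here limma 3.58.1 in R 4.3.3 was fitted with an intensity trend to log2(FPKM + 1), a pseudocount of 1, for genes that reached 1 FPKM in 3 or more of 6 libraries, with Benjamini-Hochberg adjustment at 0.05. Log2 fold changes on this scale understate changes of low genes. No counts are held, so no count model was run. The fit was tested on simulated data. Exact permutation tests used scipy 1.17.1. The members and lists were chosen with earlier results of these data known. All members were named, with TCF12, and from each other list the genes past the threshold or else the 2 with the smallest unadjusted p; 2 of these genes are not reported here. Other genes, and the differences between libraries of 1 genotype, were chosen after the values were seen. Promoters came from RefSeq (GRCh38.p14), whose table matched 22666 symbols. On that assembly 16 of the 32 genes overlap another gene, BNIP3 with PPP2R2D, HIF1A with 3 antisense genes and PFKM with SENP1 among them. Without a known strand setting, reads of such pairs cannot be separated with certainty. Multicopy pseudogenes, as of GAPDH, add a like uncertainty. In all 16 alternatives were planned and others added.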

Additional observations from a re-analysis of the deposited data

How the results depend on the processing

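The count of genes past the threshold, 31, was 23 and 25 with pseudocounts of 0.1 and 5, 32 with quantile normalization, 27 with median-ratio scaling, 31 with no trend, 11 with no filter, 18 with a filter of 5 FPKM, 480 without both libraries numbered 1 and 1874 with library weights. Leaving out HEB KO library 1 gave 76 and leaving out another library 7 to 10. The replicate number as a block gave 10 genes and 0 of the 30. Deviations of same-numbered libraries correlated at 0.26, -0.04 and 0.27, so the numbers were not read as pairs. Of the 30 genes 0 passed in each planned setting except 2. Library weights called 3 of the 30, beside 1874 of all 12937 genes. The log2 fold changes were 1.53 for ADM, 1.10 for EGLN3 and 0.78 for PFKP (limma adjusted p = 0.00151, 0.00643 and 0.0107). Leaving out both libraries numbered 1 called 2 of the 30, beside 480 of all 12937 genes. The 2 were at 1.66 for ADM and 1.07 for EGLN3 (limma adjusted p = 0.00588 and 0.0313). TCF12 lost its call with no filter, with the block, and when 1 library was left out, unless that was HEB KO library 1.

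Of 479 log2 fold changes of the 30 genes under these settings, 62 changed sign, in 19 genes, none of which had been called. With library weights they became HK2 0.53, ALDOC 0.32, TPI1 0.47, GAPDH 0.48, PGK1 0.50, PGAM1 0.43, ENO1 0.59, LDHA 0.68, LDHB 0.15, SLC16A3 1.27, PFKFB4 0.87, PDK1 0.50, BNIP3 0.14, NDRG1 0.29 and HIF1A 0.024. Without both libraries numbered 1 they became HK2 0.28, ALDOC 0.0039, TPI1 0.15, GAPDH 0.22, PGAM1 0.21, ENO1 0.31, ENO2 -0.025, LDHA 0.048, LDHB 0.023, SLC16A3 0.52, PFKFB4 0.39, PDK1 0.17, NDRG1 0.18 and HIF1A 0.054. Quantile normalization gave PFKM 0.051, GAPDH 0.32, ENO1 0.17 and HIF1A 0.057, and median-ratio scaling gave GAPDH 0.046. The ranges with single libraries left out were ALDOC -1.09 to 0.083, ENO1 -0.53 to 0.32, ENO2 -0.16 to 0.39, GAPDH -0.38 to 0.46, GPI -0.020 to 0.38, HIF1A -0.25 to 0.092, HK2 -0.62 to 0.10, LDHB -0.80 to 0.028, NDRG1 -0.38 to 0.18, PDK1 -0.55 to 0.066, PFKFB4 -0.73 to 0.34, PFKM -0.22 to 0.067, PGAM1 -0.87 to 0.15, PKM -0.23 to 0.46, SLC16A3 -1.58 to 0.068 and TPI1 -0.72 to 0.25. The median over the hypoxia-induced genes was 0.21 with library weights, and over the enzymes it ran from -0.38 to 0.48 over all settings. Differences in share (HEB KO minus wild type, percentage points) changed sign without both libraries numbered 1 for HK1 (-1.07), PFKL (-0.403), ENO1 (0.606) and LDHA (0.112), and ran with single libraries left out from -1.25 to 6.81 for HK1, -0.71 to 6.06 for PFKL, -1.68 to 0.608 for ENO1 and -7.84 to 1.82 for LDHA. The 4 shares without overlap kept their direction in these settings. Genes at least 2-fold higher in library 3 than in library 2 numbered 9 to 12 in HEB KO and 3 to 6 in wild type over the settings added after seeing the data. Why values changed with a setting was not tested. Depth is unknown and groups of 3 leave wide intervals.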
